A study of Mus musculus with 2 samples.

Results

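Chemokines, cytokines and their receptors were examined in cells sorted from embryos of mice that carry the Col2a1-Venus transgene. The list held 56 genes, picked by symbol: chemokine ligands and receptors, interleukins and related ligands, their receptors, and a few genes induced by tumour necrosis factor. Of these, 54 had a probe set annotated with that symbol alone, and 40 reached the floor that stands in for detection on at least 1 array, out of 11789 measured genes and 18193 genes with such a probe set. Il1rl1 and Il11ra1 are not analysed here.

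Venus-positive cells, 1 sample, were set against Venus-negative cells, 1 sample. Both came from embryos on the C57Bl/6 background, and both carry the transgene, which per the series description labels chondrocytes, the cells that make cartilage, with Venus, a modified green fluorescent protein. The fractions were obtained with a fluorescence-activated cell sorter, and total RNA of each fraction went onto 1 Affymetrix mouse genome array. The age and number of the embryos were not given in the labels. With 1 array per fraction there is no replicate error and no test, so each difference below describes these 2 arrays. In such bulk samples, fewer cells of a type and less RNA per cell cannot be told apart.

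Chemokines are small secreted proteins that guide migrating cells. They fall into families by the spacing of cysteines near their start, CC, CXC and CX3C, and act through receptors that couple to G proteins. Cytokines such as the interleukins carry signals between immune and tissue cells. Those of the IL-6 family share the receptor subunit gp130 and signal through JAK kinases and STAT factors, while IL-1 and tumour necrosis factor act through NF-kappaB. In inflamed joints, IL-1 and tumour necrosis factor are known to drive chondrocytes to break down cartilage matrix. Many of these genes are made mainly by leukocytes, others mainly by mesenchymal, endothelial or epithelial cells. The list was therefore read in 3 classes: 17 leukocyte genes, 17 stromal genes and 22 genes of broad expression. These were set from general knowledge, but with earlier results of these data known.

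Promoter sequences of 4 ligands are shown first because their genes can be switched on by NF-kappaB and because Cxcl1 and Cxcl2 are next to each other and share a 10-base match while their log2 ratios differed. Each is the stretch of 250 bases before the annotated start, read 5′ to 3′ on the gene's strand, from RefSeq on GRCm38.p6. Capitals mark matches to GGGNNNTTCC or its reverse complement GGAANNNCCC, a simplified form of the kappaB site. Cxcl2 lies at chr5:90903649-90903898 on the plus strand, Cxcl1 at chr5:90890995-90891244 on the plus strand, Cxcl10 at chr5:92348890-92349139 on the minus strand and Il6 at chr5:30012864-30013113 on the plus strand.
Cxcl2: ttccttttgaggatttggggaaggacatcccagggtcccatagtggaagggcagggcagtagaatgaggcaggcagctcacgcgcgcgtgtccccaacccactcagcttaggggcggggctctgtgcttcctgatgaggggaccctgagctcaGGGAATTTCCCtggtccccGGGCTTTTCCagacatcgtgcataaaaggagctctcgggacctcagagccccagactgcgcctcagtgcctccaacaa
Cxcl1: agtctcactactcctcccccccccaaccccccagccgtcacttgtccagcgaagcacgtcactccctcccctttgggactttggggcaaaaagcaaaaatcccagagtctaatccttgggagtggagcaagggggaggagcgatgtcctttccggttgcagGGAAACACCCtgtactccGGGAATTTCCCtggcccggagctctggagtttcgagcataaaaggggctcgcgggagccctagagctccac
Cxcl10: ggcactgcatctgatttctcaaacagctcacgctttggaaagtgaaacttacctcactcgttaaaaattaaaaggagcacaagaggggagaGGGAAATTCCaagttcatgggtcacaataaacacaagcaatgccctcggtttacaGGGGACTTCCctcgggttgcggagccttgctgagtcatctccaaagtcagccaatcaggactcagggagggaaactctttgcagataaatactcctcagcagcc
Il6: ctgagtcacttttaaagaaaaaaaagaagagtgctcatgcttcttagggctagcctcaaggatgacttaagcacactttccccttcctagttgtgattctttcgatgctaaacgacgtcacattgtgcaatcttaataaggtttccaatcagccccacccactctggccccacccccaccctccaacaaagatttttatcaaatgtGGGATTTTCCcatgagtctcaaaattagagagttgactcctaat

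In Cxcl2 and Cxcl1 the run GGGAATTTCCC holds overlapping matches on both strands, the plus-strand one starting 97 bases before the start of Cxcl2 and 71 bases before that of Cxcl1. Both genes have a second match, GGGCTTTTCC in Cxcl2 and GGAAACACCC in Cxcl1. Cxcl10 has its matches 159 and 104 bases before the start, and Il6 has 1 match 44 bases before it. Over windows of this length, a match was present in 4.65% of all 32851 promoters in the table, and in at least 1 window of 5.31% of genes. Among members, 11 of 55 windows held one, and these belonged to 10 of the 45 members with a window. The other members with a match were Ccl9, Csf3r, Ifngr2, Il1r1, Il1rn and Tnfaip3. A match is a description of the letters and no evidence of binding.

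Signals are MAS5 intensities on a linear scale. The Venus-positive array was the dimmer one, and the log2 ratio, always Venus-positive over Venus-negative, had a median of -0.33 over all measured genes. Ratios are therefore also given relative to that median gene. Signals below 22.5, the median of all signals on both arrays, were set to this floor before a ratio was taken, and a fold with 1 side below it is a lower bound, written "at least". As a check of the sort, Col2a1, whose reporter chose the cells, was at 8443 in Venus-positive cells, against 606 in Venus-negative cells. Sox9, the transcription factor of cartilage, was at 1601 in Venus-positive cells, against 338 in Venus-negative cells. Leukocyte markers were low in the Venus-positive fraction. All 16 were measured and 15 were at least 2-fold lower, beside 11.6% of all measured genes. Summed signals were 375 in Venus-positive cells, against 3161 in Venus-negative cells. Of the 16, 10, Ptprc among them, were below the floor in Venus-positive cells, which fixes their direction. All 6 above it on both arrays were at least 2-fold lower, against 9.84% of such genes. Ptprc, the pan-leukocyte antigen CD45, was at 10.2 in Venus-positive cells, against 116 in Venus-negative cells, and Csf1r, the macrophage growth factor receptor, was at 48.0 in Venus-positive cells, against 758 in Venus-negative cells. Endothelial markers had summed signals of 216 in Venus-positive cells, against 1042 in Venus-negative cells, and all 9 measured ones were at least 2-fold lower. Venus-negative signal alone carried 3 of the 9 over the floor, and the other 6 were above it on both arrays.

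Of the 40 measured members, 34 had a log2 ratio below 0, as did 9110 of the 11789 measured genes, the Venus-positive array being the dimmer one. In Venus-positive cells, 15 of the 40 were at least 2-fold lower, or 37.5%, against 11.6% of all measured genes. Osmr alone was at least 2-fold higher, or 2.5% of the members, a share close to the 2.79% of all measured genes. At 4-fold, 9 members were lower, against 2.24% of all genes. The median log2 ratio of the members was -0.80, beside -0.33 over all measured genes. Relative to the median gene, 12 members were at least 2-fold lower, against 6.45% of genes, and 2, Osmr and Cx3cl1, were higher, against 5.06%. The 3 that dropped out of the lower group on this scale were Cxcl13, Cxcl10 and Tnfaip6. These counts depend on which members passed the floor. Venus-negative signal alone carried 16 members over it and Venus-positive signal alone carried 2, Lif and Osmr. Among the 22 members above it on both arrays, 8 were at least 2-fold lower, against 9.84% of such genes, and none was 2-fold higher. The plot of signals by gene shows both values of every measured member.

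**Figure D1:**
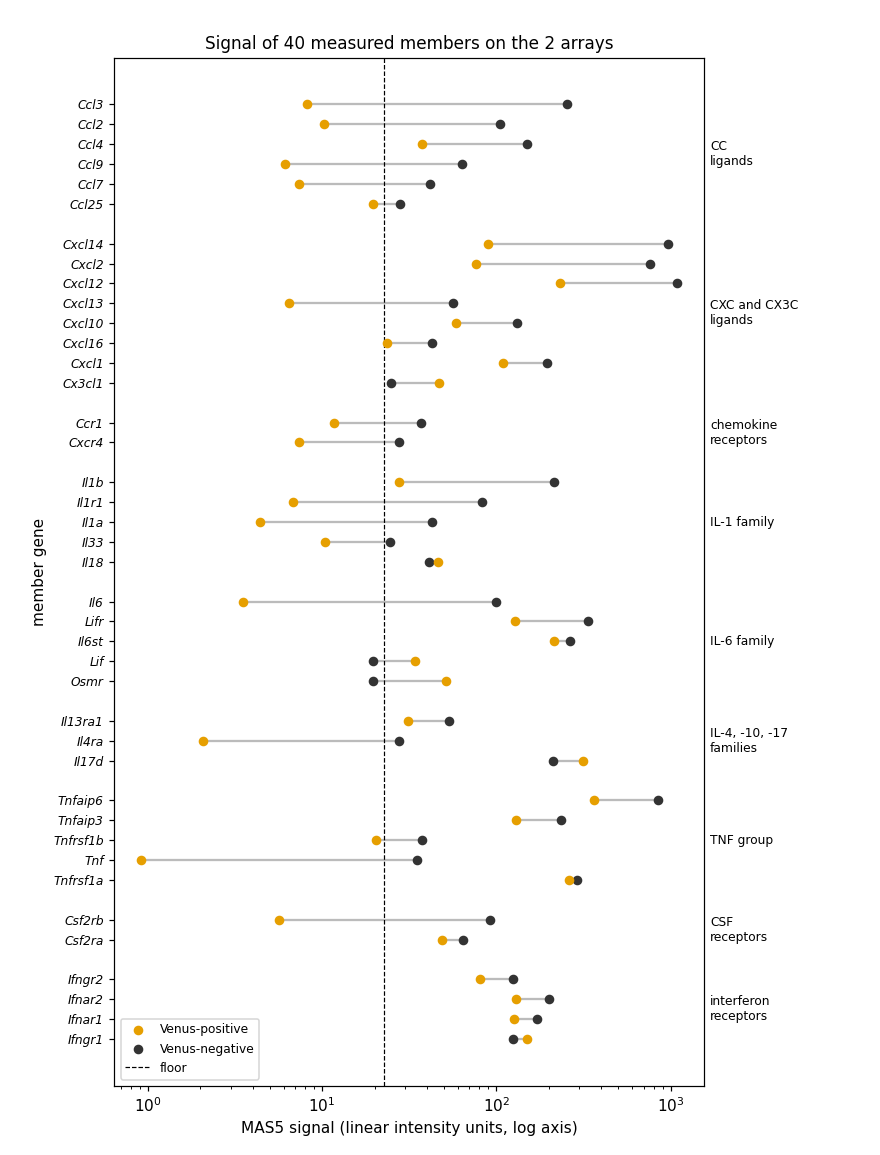
MAS5 signal (log axis) of the 40 measured members in Venus-positive (orange) and Venus-negative cells (dark), grouped by family, with the floor of 22.5 as a dashed line and 1 array per group. The orange point lies left of the dark one for most genes and right of it for Cx3cl1, Il18, Lif, Osmr, Il17d and Ifngr1.

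Among CC chemokine ligands, 6 of 10 were measured. On the probe set that stands for the gene, all 6 had the lower signal in Venus-positive cells, as did 9110 of the 11789 measured genes. Venus-negative signal alone carried 5 of the 6 over the floor, which fixes their direction. Ccl3, which encodes macrophage inflammatory protein 1-alpha, a ligand that recruits monocytes and macrophages, was at 8.23 in Venus-positive cells, against 255 in Venus-negative cells, at least 11.3-fold lower (log2 ratio -3.50, relative -3.17). Its neighbour Ccl4, which encodes macrophage inflammatory protein 1-beta, was at 37.4 in Venus-positive cells, against 151 in Venus-negative cells, 4.03-fold lower. This adjacent pair was thus lower together, and of the CC ligands only Ccl4 was above the floor on both arrays. Ccl2, the main ligand of Ccr2 on monocytes, was at 10.2 in Venus-positive cells, against 105 in Venus-negative cells, at least 4.67-fold lower. The next gene along, Ccl7, another monocyte attractant, was at 7.34 in Venus-positive cells, against 41.6 in Venus-negative cells, at least 1.85-fold lower. Ccl9, a chemokine of myeloid cells and osteoclasts in mice, was at 6.13 in Venus-positive cells, against 63.4 in Venus-negative cells, at least 2.82-fold lower, and its second probe set had a log2 ratio of -1.11. Ccl25, the thymic and intestinal ligand that attracts T cell precursors, was close to the floor, at 19.5 in Venus-positive cells, against 28.2 in Venus-negative cells, at least 1.25-fold lower. Its other probe set was below the floor on both arrays and ran the other way, at 22.1 in Venus-positive cells, against 19.0 in Venus-negative cells. Ccl5, Ccl6, Ccl11 and Ccl24 were below the floor on both arrays. Ccl2 and Ccl7, and Ccl3 and Ccl4, are related in sequence, and each rests on 1 probe set.

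The CXC group held the members with the widest differences measured above the floor on both arrays. Cxcl14, a chemokine of epithelium and connective tissue, was at 90.0 in Venus-positive cells, against 970 in Venus-negative cells, 10.8-fold lower (log2 ratio -3.43, relative -3.10). Its second probe set, at a log2 ratio of -2.62, was also more than 4-fold lower. Cxcl2, a neutrophil attractant that macrophages make on activation, was at 76.1 in Venus-positive cells, against 763 in Venus-negative cells, 10.0-fold lower (log2 ratio -3.33, relative -2.99). Cxcl1, next to it on chromosome 5 and also a neutrophil attractant, was at 110 in Venus-positive cells, against 194 in Venus-negative cells, 1.77-fold lower, and its 3 probe sets ran from a log2 ratio of -0.83 to -0.14. The 2 neighbours, whose promoters share GGGAATTTCCC, therefore differed in size of ratio, although Cxcl2 rests on 1 probe set and no error between samples is known. Cxcl12, which retains blood stem cells in their niche and guides migrating progenitors, was at 232 in Venus-positive cells, against 1092 in Venus-negative cells, 4.71-fold lower. A further probe set of Cxcl12 gave a log2 ratio of -1.97, and the third was below the floor on both arrays.

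The remaining CXC ligands and Cx3cl1 follow. Cxcl13, the attractant of B cells, was at 6.46 in Venus-positive cells, against 56.1 in Venus-negative cells, at least 2.49-fold lower, with its second probe set at a log2 ratio of -1.04. Cxcl10, a ligand induced by interferon, was at 59.0 in Venus-positive cells, against 132 in Venus-negative cells, 2.23-fold lower, and its relative log2 ratio of -0.83 was within 2-fold. Cxcl16, which exists as a membrane-bound and a shed form, was at 23.6 in Venus-positive cells, against 42.8 in Venus-negative cells, 1.81-fold lower. Cx3cl1 (fractalkine), a membrane-anchored chemokine best known from neurons and endothelium, ran the other way. It was at 46.8 in Venus-positive cells, against 24.8 in Venus-negative cells, 1.89-fold higher, with a relative log2 ratio of 1.25, but 1 of its 4 probe sets reached the floor. Cxcl5 and Cxcl9 were below the floor on both arrays.

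Chemokine receptors were dim. Ccr1, a receptor of Ccl3 on myeloid cells, was at 11.8 in Venus-positive cells, against 36.9 in Venus-negative cells, at least 1.64-fold lower. Cxcr4, the receptor of Cxcl12, was at 7.39 in Venus-positive cells, against 27.5 in Venus-negative cells, at least 1.22-fold lower. Ccr2 and Cxcr2 were below the floor on both arrays. The atypical receptor Ackr3, which takes up Cxcl12 without G-protein signalling and is not on the member list, was at 1310 in Venus-positive cells, against 1039 in Venus-negative cells, 1.26-fold higher. The ligand of this axis thus had the lower signal in Venus-positive cells while its scavenging receptor did not.

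**Figure D2:**
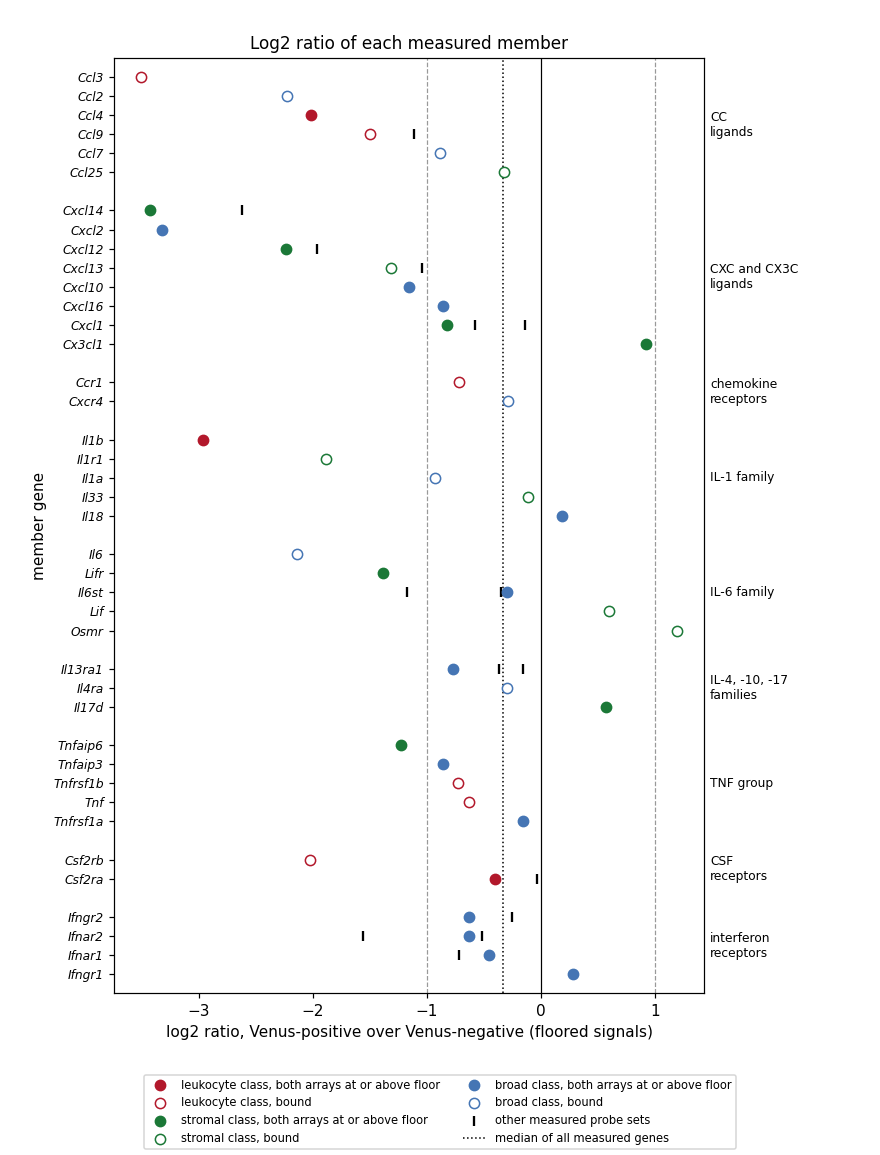
Log2 ratio (Venus-positive over Venus-negative) for the 40 measured members, by family and coloured by source class; open circles are bounds, short bars are a gene's other measured probe sets, and the dotted line is the median of all measured genes at -0.33. Ccl3, Cxcl14 and Cxcl2 lie beyond -3, and Osmr lies beyond 1.

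In the IL-1 family the ligand Il1b and the receptor Il1r1 passed 2-fold, both lower in Venus-positive cells. Il1b, the secreted pro-inflammatory form made by activated myeloid cells, was at 27.7 in Venus-positive cells, against 216 in Venus-negative cells, 7.77-fold lower (log2 ratio -2.96, relative -2.63). Its neighbour Il1a, an IL-1 form also stored in epithelial cells, was at 4.41 in Venus-positive cells, against 42.8 in Venus-negative cells, at least 1.90-fold lower. Both ligands were thus dimmer in Venus-positive cells, Il1a on a bound set by the floor. Il1r1, the signalling receptor for both ligands, was at 6.79 in Venus-positive cells, against 82.9 in Venus-negative cells, at least 3.68-fold lower. Il33, an alarmin of stromal nuclei, was at 10.3 in Venus-positive cells, against 24.4 in Venus-negative cells, at least 1.08-fold lower. Il18, an activator of interferon-gamma production, was nearly level, at 46.4 in Venus-positive cells, against 40.8 in Venus-negative cells. Il1rn, the receptor antagonist, was below the floor on both arrays.

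Of 5 measured genes of the IL-6 family, 3 had the lower signal in Venus-positive cells and 2 the higher. The higher ones, Osmr and Lif, passed the floor through Venus-positive signal alone, which fixes their direction. Venus-negative signal alone carried Il6 over it, which fixes its direction too. The 2 above the floor on both arrays, Il6st and Lifr, had the lower signal in Venus-positive cells on the deposited scale. Il6, the inflammatory ligand, was at 3.53 in Venus-positive cells, against 98.9 in Venus-negative cells, at least 4.40-fold lower. Il6st, which encodes the shared subunit gp130, was at 215 in Venus-positive cells, against 264 in Venus-negative cells, and its 3 measured probe sets ran from a log2 ratio of -1.17 to -0.30. The last of these, from the probe set that stands for the gene, was 0.03 relative to the median gene. The specific subunits Lifr and Osmr differed in opposite directions, that of Osmr being fixed by the floor. Lifr, the receptor subunit for leukaemia inhibitory factor, was at 129 in Venus-positive cells, against 336 in Venus-negative cells, 2.61-fold lower. Osmr, the subunit for oncostatin M, was at 51.5 in Venus-positive cells, against 19.5 in Venus-negative cells, at least 2.29-fold higher (log2 ratio 1.19, relative 1.53). With log2(signal + 16) in place of the floor its log2 ratio was 0.93. Osmr and Lifr are next to each other on chromosome 15, and each rests on 1 measured probe set of 3. Lif itself was at 34.0 in Venus-positive cells, against 19.7 in Venus-negative cells, at least 1.51-fold higher. Il6ra and Il11 were below the floor on both arrays.

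Of the IL-4, IL-10 and IL-17 families, 3 of 5 members were measured, of which Il17d and Il13ra1 were above the floor on both arrays and within 2-fold, while Il4ra has a bound only. Il17d, an IL-17 family ligand, was at 315 in Venus-positive cells, against 212 in Venus-negative cells, 1.48-fold higher with a relative log2 ratio of 0.90. That value comes from a probe set of the kind that can match several transcripts, and the other probe set of Il17d was below the floor. Il13ra1, a subunit of the receptor for IL-4 and IL-13, was at 31.3 in Venus-positive cells, against 53.3 in Venus-negative cells, 1.71-fold lower, with its 3 measured probe sets between -0.77 and -0.16. Il4ra, its partner subunit, was at 2.08 in Venus-positive cells, against 27.6 in Venus-negative cells, at least 1.23-fold lower. With the floor at the 25th percentile its log2 ratio was -2.41, still a bound. Its other probe sets, below the usual floor on both arrays, had the higher signal in Venus-positive cells. They were at 8.64 and 8.41 in Venus-positive cells, against 7.55 and 2.19 in Venus-negative cells. Il10 and Il10ra, the ligand and receptor of an anti-inflammatory axis, were below the floor on both arrays.

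The tumour necrosis factor group was measured in full, and of its 3 genes above the floor on both arrays, Tnfaip6 was at least 2-fold lower. Tnfaip6 (TSG-6), a secreted protein that binds hyaluronan, was at 363 in Venus-positive cells, against 849 in Venus-negative cells, 2.34-fold lower, and its relative log2 ratio was -0.90. Tnf was at 0.91 in Venus-positive cells, against 34.9 in Venus-negative cells, at least 1.55-fold lower. The ligand was dim even where it was higher, and with the floor at the 25th percentile its log2 ratio was -2.75, still a bound. Tnfrsf1a, the widely expressed receptor, was at 262 in Venus-positive cells, against 292 in Venus-negative cells, a log2 ratio of -0.16 that became 0.18 relative to the median gene. Tnfrsf1b, the receptor found mainly on leukocytes and endothelium, was at 20.3 in Venus-positive cells, against 37.2 in Venus-negative cells, at least 1.65-fold lower. Tnfaip3 (A20), which restrains NF-kappaB, was at 129 in Venus-positive cells, against 234 in Venus-negative cells, 1.81-fold lower.

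Receptors for colony-stimulating factors and interferons completed the list. Csf2rb, the shared signalling subunit for GM-CSF, IL-3 and IL-5, was at 5.62 in Venus-positive cells, against 91.4 in Venus-negative cells, at least 4.06-fold lower. Csf2ra, the ligand-binding subunit for GM-CSF, was at 48.7 in Venus-positive cells, against 64.5 in Venus-negative cells, 1.32-fold lower. On the probe sets that stand for these genes, the GM-CSF receptor subunits differed in size of ratio, although Csf2rb rests on 1 measured probe set. The second probe set of Csf2ra was at 4.71 in Venus-positive cells, against 23.1 in Venus-negative cells, so its ratio is a bound set by the floor. Csf3r was below the floor on both arrays. All 4 interferon receptor genes were above the floor on both arrays and within 2-fold. Ifngr1, the ligand-binding chain for interferon-gamma, was at 151 in Venus-positive cells, against 124 in Venus-negative cells, with its partner Ifngr2 at 80.5 in Venus-positive cells, against 125 in Venus-negative cells. For type I interferon, Ifnar1 was at 126 in Venus-positive cells, against 172 in Venus-negative cells. Its partner Ifnar2 was at 130 in Venus-positive cells, against 201 in Venus-negative cells, with a further probe set at a log2 ratio of -1.56.

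By source class, leukocyte genes had the lowest median, except under a higher floor, the 75th percentile of signals, where 3 of them were measured and their median was -0.92, against -1.31 for stromal genes. Venus-positive signals of all 3 lie below that floor, so these are bounds. Among members above the usual floor on both arrays, the medians were -2.01 for 3 leukocyte, -1.23 for 7 stromal and -0.63 for 12 broad genes. All 9 measured leukocyte members had a lower signal in Venus-positive cells on the deposited scale and relative to the median gene, with a median log2 ratio of -1.49, and 5 of them were at least 2-fold lower, 3 of these as bounds, where 11.6% of all measured genes were. With quantile normalization Csf2ra was the exception, at 0.03. Of the 9, 6 were below the floor in Venus-positive cells, so passing the floor fixed their direction on the deposited scale. Stromal genes ran from a log2 ratio of -3.43 to 1.19, the upper end being a bound for Osmr. Of 13 measured, 6 were at least 2-fold lower, beside 11.6% of all measured genes, namely Cxcl12, Cxcl13, Cxcl14, Il1r1, Lifr and Tnfaip6. The higher signal was in Venus-positive cells for 4, namely Osmr, Cx3cl1, Lif and Il17d, as for 2678 of the 11789 measured genes. Venus-negative signal alone carried 4 of the 13 over the floor and Venus-positive signal alone 2, Osmr and Lif, which fixes their direction. Above the floor on both arrays 4 of 7 were at least 2-fold lower, against 9.84% of such genes, and 0 were 2-fold higher. The median log2 ratio of all 13 was -0.83. In the broad class 4 of 18 were at least 2-fold lower, Cxcl2, Ccl2, Il6 and Cxcl10, beside 11.6% of all measured genes. The median of the class was -0.70. Venus-negative signal alone carried 6 of the 18 over the floor, Ccl2 and Il6 among them, which fixes their direction. Above the floor on both arrays 2 of 12 were at least 2-fold lower, against 9.84% of such genes. Marker signals of other cell types were also lower in Venus-positive cells, with median log2 ratios of -3.63 for skeletal muscle, -2.49 for leukocytes, -2.29 for epithelium, -2.20 for endothelium and -1.35 for fibroblasts. All 6 skeletal muscle markers were at least 2-fold lower, beside 11.6% of all measured genes. Venus-negative signal alone carried 3 of the 6 over the floor, which fixes their direction. Their list had summed signals of 293 in Venus-positive cells, against 3897 in Venus-negative cells. Of 8 epithelial markers 7 were at least 2-fold lower, and 2 of the 8 passed the floor through Venus-negative signal alone. Summed signals of the 8 were 384 in Venus-positive cells, against 1637 in Venus-negative cells. In the fibroblast list 6 of 10 were at least 2-fold lower, with summed signals of 17441 in Venus-positive cells, against 32150 in Venus-negative cells. Above the floor on both arrays, 3 of 3 muscle, 5 of 6 epithelial and 5 of 9 fibroblast markers were 2-fold lower, against 9.84% of such genes. The part of these cell types in the members' values was not tested.

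**Figure D3:**
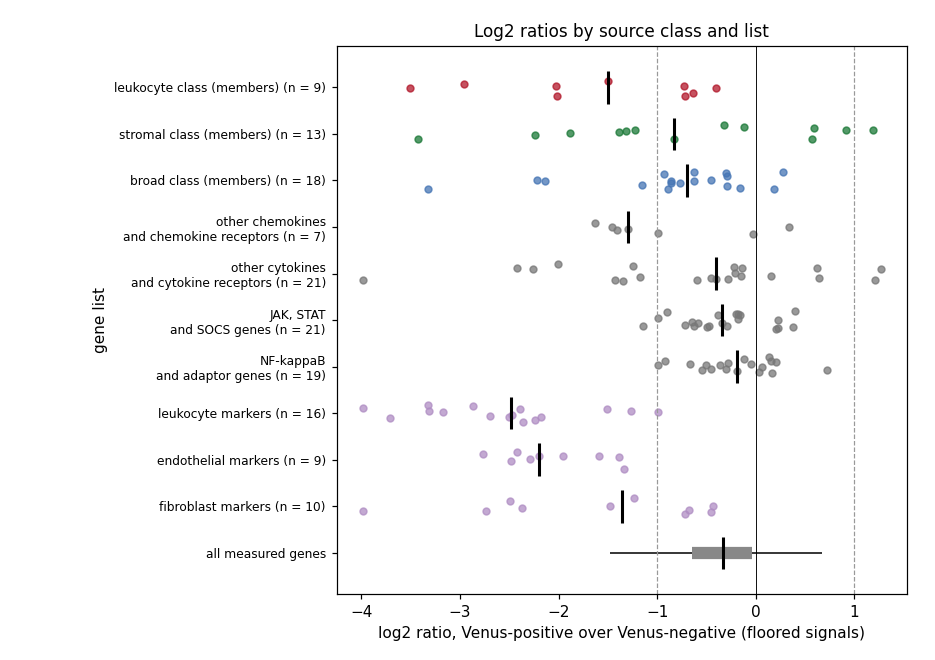
Log2 ratio (Venus-positive over Venus-negative) for the measured genes of each class and list, 1 point per gene, with the median as a vertical bar; for all measured genes the box spans the 25th to 75th and the line the 5th to 95th percentile. Leukocyte-class members lie left of 0 throughout, stromal members on both sides, and the JAK, STAT, SOCS and NF-kappaB lists gather around the median of all genes.

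The other genes of these pathways were read from 4 further lists. Among other chemokines and chemokine receptors 7 of 28 were measured, of which 4 were at least 2-fold lower in the Venus-positive fraction, beside 11.6% of all measured genes. All 4 passed the floor through Venus-negative signal alone, as did 5 of the 7, and neither of the 2 above it on both arrays differed by 2-fold. By the size of the bound, which does not order the differences themselves, Cx3cr1, the receptor of Cx3cl1 on macrophages, was at 22.0 in Venus-positive cells, against 69.5 in Venus-negative cells, at least 3.09-fold lower. Ccrl2 was at 16.6 in Venus-positive cells, against 61.9 in Venus-negative cells, at least 2.75-fold lower. Ccl12 was at 1.99 in Venus-positive cells, against 59.7 in Venus-negative cells, at least 2.65-fold lower. Among other cytokines and their receptors 21 of 39 were measured, 8 at least 2-fold lower, beside 11.6% of all measured genes, and 2 higher, beside 2.79%. Of the 15 above the floor on both arrays, 6 were lower, beside 9.84% of such genes. After Csf1r, the widest were Il17rd, which also restrains FGF signalling, at 81.3 in Venus-positive cells, against 436 in Venus-negative cells, and Kitl, the ligand of Kit, at 104 in Venus-positive cells, against 500 in Venus-negative cells. Probe sets of Kitl disagreed, from a log2 ratio of -2.26 to -0.10. The higher ones were Tnfrsf12a, the receptor of TWEAK, at 816 in Venus-positive cells, against 338 in Venus-negative cells, and Tnfrsf11b, which encodes osteoprotegerin, the decoy receptor that restrains osteoclast formation, at 63.8 in Venus-positive cells, against 27.7 in Venus-negative cells.

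Signal transducers were read against the same shares of all measured genes, 11.6% lower and 2.79% higher. In the JAK, STAT and SOCS list 21 of 25 were measured, and Jak1 was the one gene at least 2-fold lower. It was at 323 in Venus-positive cells, against 714 in Venus-negative cells, and its 3 measured probe sets ran from a log2 ratio of -1.37 to -0.71. No gene of the list was 2-fold higher, and the median log2 ratio of the list was -0.34. In the list of NF-kappaB and adaptor genes 19 of 26 were measured, and none of the 18 above the floor on both arrays differed by 2-fold on the deposited scale. Nfkbie, an inhibitor of NF-kappaB, was at 16.8 in Venus-positive cells, against 44.7 in Venus-negative cells, at least 1.99-fold lower. The median log2 ratio of the list was -0.19. Nfkbia, the inhibitor that NF-kappaB itself induces, was at 3987 in Venus-positive cells, against 3632 in Venus-negative cells. The plot by class and list sets these medians beside that of all measured genes, -0.33.

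The size of some ratios rested on the floor, as the plot of members under each way of processing shows. Under a higher floor, the 75th percentile of signals, 6 of the 15 lower members were still counted as 2-fold lower. A further 6, Ccl2, Ccl9, Csf2rb, Cxcl13, Il1r1 and Il6, were not measured there. For the other 3 the ratio became a bound within 2-fold, a log2 ratio of -0.40 for Ccl4, -0.92 for Il1b and -0.21 for Cxcl10. Under the same floor Cxcl14 and Cxcl2 had bounds of -3.09 and -2.74, while Cxcl12 was at -2.24 and Lifr at -1.38 with both signals above it.

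**Figure D4:**
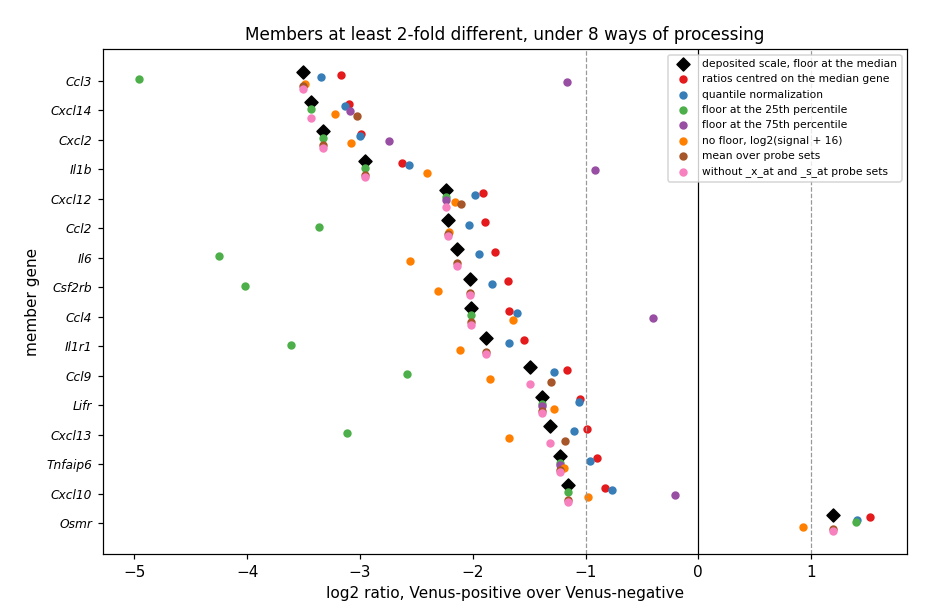
Log2 ratio (Venus-positive over Venus-negative) for the 16 members at least 2-fold different, under the 8 ways of processing (black diamonds, the deposited scale with the floor at the median of all signals). Cxcl14 stayed between -3.43 and -3.03 and Cxcl12 between -2.24 and -1.91, while Il1b reached -0.92 and Ccl4 -0.40 with the floor at the 75th percentile, both as bounds.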

How the data were processed

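The authors deposited a linear intensity for each probe set on each array, which came from MAS5 according to the labels, per the submitters' processing notes. Neither its version nor its scaling target is given in the sources used here, and detection calls were not used. Biotinylated cRNA came from 100 ng of total RNA, per the labels' protocols. After 64 control probe sets were set aside, 34945 of 45101 had 1 symbol in the platform annotation and were used. The gene identifiers of all 54 members with a probe set matched RefSeq.

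The floor (22.5, the 50th percentile of all signals) was applied before log2. Each gene was represented by its measured probe set of highest mean log2 signal. Counts use 2-fold and 4-fold sizes; with 1 array per group no test was run, and the number of arrays limits the precision. The procedure was tested on simulated data. Changes were planted there only in genes with Venus-negative signal well above the floor, so recovery of changes in dimmer genes was not tested. Trimmed means (2% off each end) were 109 (Venus-positive) and 133 (Venus-negative).

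Members, classes, lists and the motif were chosen with earlier results of these data known. Every measured member is given with its signals, and those below the floor are named. The 3 widest genes past 2-fold in each direction are named per pathway list. Ackr3, Nfkbia and the printed promoters were chosen after their values were seen. Protein sequences are not used here. The work used Python 3.11.15, numpy 2.4.6 and pandas 2.3.3.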

Additional observations from a re-analysis of the deposited data

How the results depend on the processing

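No paired analysis was possible because each group has 1 array. All values are Venus-positive over Venus-negative. The 7 alternatives gave 256 values for single members, of which 211 moved by under 0.34 (the pooled SD between measured probe sets of a gene, on the log2 scale), 45 moved further, and no member that differed by 2-fold changed sign. The sign changed for Csf2ra, Il6st and Tnfrsf1a, which were within 2-fold, and for Ccl25, Cxcr4, Il33 and Il4ra, which had bounds. With centring the bounds of Ccl25, Cxcr4, Il33 and Il4ra were above 0, which leaves the direction relative to the median gene open. Ccl25 was also above 0, at 0.21, with quantile normalization. Under every alternative that measured them, 10 members were at least 2-fold lower. The 15 members at least 2-fold lower became 27 of 49 measured under a lower floor, the 25th percentile, 6 of 18 with it at the 75th, and 8 of 22 when only members above the floor on both arrays were counted, a choice added after seeing the data. The background then was 16.1%, 6.39% and 9.84%. The count of 1 higher member became 2 with centring, with quantile normalization and with the low floor, and 0 with the high floor or with log2(signal + 16). The leukocyte median moved to -1.93 with the low and -0.92 with the high floor, where 3 of its genes were measured. The stromal median moved to -1.23 and -1.31, and the broad median to -0.30 with the high floor and -0.29 with quantile normalization. With the high floor the stromal median was thus below the leukocyte one; fewer genes are measured there by construction, and Venus-positive signals of the 3 leukocyte genes were raised to the floor. In the pathway lists, also added later, Jak1 left the count of 2-fold lower genes, then 0, and 1 NF-kappaB gene, Irak1, was 2-fold higher, with centring or quantile normalization. On the deposited scale the 4 measured probe sets of Irak1 ran from a log2 ratio of -0.07 to 0.73. With the low floor the NF-kappaB list had 2 lower genes, the other chemokines 2 higher, and the other cytokines 13 lower and 4 higher. With the high floor the other chemokines had 0 lower and the other cytokines 3 lower and 1 higher, and with log2(signal + 16) the latter list had 1 higher. Centring moved the share of higher genes among all 2-fold genes to 44.0%, against 19.4% on the deposited scale.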

Other observations

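Of the 14 members below the floor on both arrays, 10 had the lower signal in Venus-positive cells and 4 the higher, taking each gene's highest probe set per array. Their signals ran from 0.58 to 20.3 in Venus-positive and from 0.85 to 20.5 in Venus-negative cells. At these levels no order between the arrays is read.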
